A study of Mus musculus with 5 samples.

Results

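The nuclei described here were chosen by the RNA of 6 genes that mark newborn neurons, and they numbered 1554 of the 32199 nuclei within the quality limits of 3 single-nucleus libraries of mouse dentate gyrus. A nucleus was a member when it held at least 500 unique molecular identifiers (UMIs, each a counted RNA molecule), at most 5% of them mitochondrial. It also had at least 1 UMI of at least 2 of Igfbpl1, Sox11, Dcx, Eomes, Neurod1 and Draxin, with Igfbpl1 or Sox11 among them. The summed UMIs of Gad1 and Gad2 (inhibitory neurons), Aqp4 (astrocytes), Mog (oligodendrocytes) and Pdgfra (oligodendrocyte precursors) could not exceed 1. The members were therefore selected on measured values, and their levels of these genes are given only as a description.

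The study asked how contextual fear conditioning (CFC), in which mice learn to fear a place where they were shocked, acts on the dentate gyrus, and what a receptor subunit named Csf2rb2 contributes. The WT-naive library came from untrained wild-type mice and the WT-CFC library from wild-type mice taken 14 days after training. The library labelled KO-CFC was also taken 14 days after training, from mice whose title names a Csf2rb2 knockout while their genotype field reads Csf2rb3-KO. Each group held 10 mice and gave 1 library, so no difference between libraries has a replicate check, and intervals cover counting error only. Strain, sex, age and the deleted stretch were not given in the sources used here, nor whether the mice of a group were pooled in equal parts. A further pair of libraries, CFC-14d and Random-14d, was not analysed here.

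The dentate gyrus is among the few places in the adult mammalian brain where neurons are still born. Radial glia-like stem cells in the subgranular zone give rise to intermediate progenitors that carry Eomes, and these divide and become neuroblasts and immature granule neurons that carry Sox11, Dcx and Igfbpl1. Neurod1 is needed for granule neurons to form and survive, and Draxin is a secreted repulsive axon guidance protein. Over the following weeks the cells extend dendrites and axons, lose these transcripts and turn on Calb1, a calcium-buffering protein of mature granule neurons.

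The promoters of a pair of genes are shown because the results turn on them. Sox11, a transcription factor of newborn neurons, is part of the selection rule, and Sema3c, a secreted guidance cue, had the largest fold change over mature granule neurons among the 20 genes chosen by rule as higher in members; both were picked after their values were seen. The sequences are RefSeq's, on mouse build GRCm38.p6, which is older than the build of the count files, and run from 250 bases before to 50 bases after the annotated start on the gene's own strand. Sox11 lies at chr12:27342669-27342968 on the minus strand, and Sema3c at chr5:17574566-17574865 on the plus strand. Capitals mark the E-box CAGATG, a motif that Neurod-family factors can bind, searched as CAGATG and its reverse complement CATCTG.
Sox11: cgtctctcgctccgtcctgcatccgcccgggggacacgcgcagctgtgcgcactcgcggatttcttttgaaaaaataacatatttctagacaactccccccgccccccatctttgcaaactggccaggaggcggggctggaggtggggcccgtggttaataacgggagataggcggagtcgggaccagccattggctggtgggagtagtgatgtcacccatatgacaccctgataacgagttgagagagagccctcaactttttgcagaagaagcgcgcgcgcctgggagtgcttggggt
Sema3c: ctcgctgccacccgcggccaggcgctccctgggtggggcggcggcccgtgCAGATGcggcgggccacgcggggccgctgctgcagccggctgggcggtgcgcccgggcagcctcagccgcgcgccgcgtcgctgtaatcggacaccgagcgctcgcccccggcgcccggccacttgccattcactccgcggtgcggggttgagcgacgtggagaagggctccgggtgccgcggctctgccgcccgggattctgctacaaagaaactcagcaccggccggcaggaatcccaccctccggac
The Sema3c window held 1 copy and the Sox11 window held 0. The motif stood in 5635 of 32851 RefSeq promoters of this length (17.2%), in 0 of the 5 rule genes that matched the table, in 3 of 14 matched genes chosen by the rule below as higher in members, and in 0 of 14 chosen as lower. A match describes letters in a window and does not show binding.

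The 3 libraries differed in depth and content before any nuclei were chosen. They held 64716053 UMIs in 10968 barcodes (WT-naive), 68519389 in 13213 (WT-CFC) and 38045642 in 8395 (KO-CFC-labelled). Pairs of libraries shared 25 to 32 barcodes, none of them between members. In the whole libraries Csf2rb2 stood at 14.4 CPM (a gene's UMIs scaled to a common library total) for WT-naive, 17.6 for WT-CFC and 9.67 for the KO-CFC-labelled library. The targeted RNA was thus lower but present, and the counted tags may lie outside the deleted part, so this check does not settle the label. The library labelled KO-CFC also stood apart in Xist, the X-inactivation RNA (641 CPM against 2.94 in WT-naive and 1.81 in WT-CFC), in the antibody gene Igkc (460 against 0 and 0.0146) and in the haemoglobin gene Hbb-bs (176 against 20.4 and 16.2). Genotype cannot be told apart from these differences.

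Members made up 5.78% of nuclei in WT-naive (622 of 10756, exact Clopper-Pearson 95% interval 5.35 to 6.24). In WT-CFC they were 2.63% (343 of 13063, 2.36 to 2.91), and in the KO-CFC-labelled library 7.03% (589 of 8380, 6.49 to 7.60). WT-CFC was the lowest of the 3, and the counting intervals did not overlap. Depth moved with these shares, since nuclei under 1000 UMIs were 36.4% of WT-CFC against 16.3% of WT-naive and 19.0% of the KO-CFC-labelled library, while the median member held 8448, 6137.5 and 4962 UMIs respectively. After every nucleus was thinned to 1000 UMIs, the rule chose 139 of 9007 WT-naive nuclei (1.54%), 59 of 8304 WT-CFC nuclei (0.711%) and 137 of 6785 nuclei of the KO-CFC-labelled library (2.02%), in the same order. Igfbpl1 RNA over whole libraries had that order too, at 21.5, 10.8 and 47.5 CPM. Igfbpl1 is a gene of the rule, so its order is not separate from that of the shares. Oligodendrocyte nuclei, which are not members, had the same order, at 31.9, 17.5 and 53.3 CPM. With 1 library a group, the difference between mice of the same treatment was not measured.

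**Figure D1:**
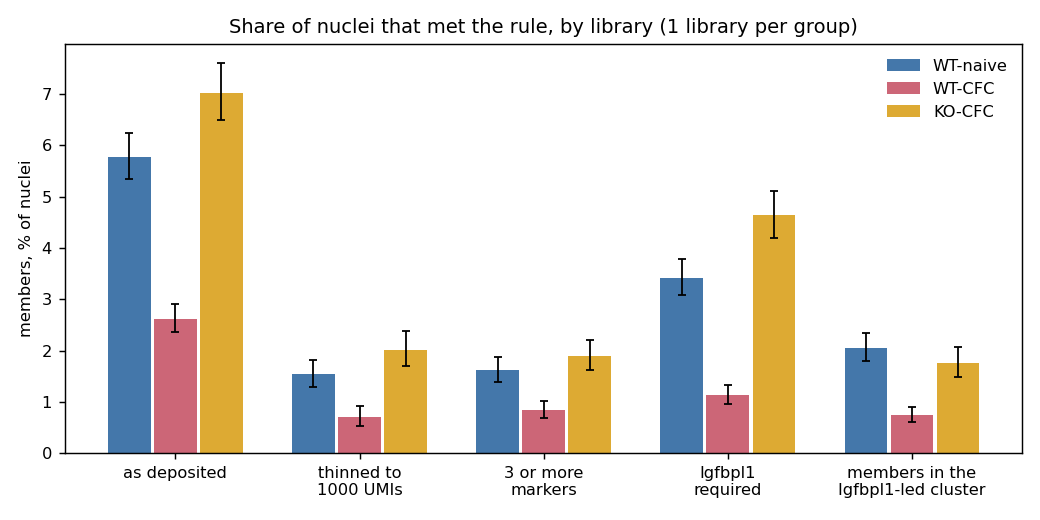
Share of nuclei chosen, in percent of nuclei within the quality limits, for each of the 3 libraries, with exact 95% binomial intervals that cover counting error only. The share was 5.78% (WT-naive), 2.63% (WT-CFC) and 7.03% (KO-CFC-labelled library), and the stricter readings of the rule are drawn beside it.

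The label of immature granule neurons and neuroblasts was checked by clustering all nuclei into 32 groups. The clustering did not use the rule, but the genes of the rule were not left out of it. The cluster with the highest Igfbpl1 level was then taken, so the check is not independent of the rule. This cluster of 863 nuclei was led by Igfbpl1, the mitotic topoisomerase gene Top2a, Ttc28, Sema3c, Sncaip, the granule-lineage factor Prox1, Adamts18, Sox11, Frmd4b and Kcnh7. It held 466 of the 1554 members, 29.99% (27.7 to 32.3). Of these, 221 came from WT-naive (35.5% of its members), 97 from WT-CFC (28.3%) and 148 from the KO-CFC-labelled library (25.1%). The other 1088 members were spread over every other cluster, with 166 in a cluster led by Tafa1 and Hs3st4, 146 in a cluster led by Xist, Tsix and the granule neuron genes C1ql2 and Trpc6, 114 in a cluster led by Cntn4 and Grm8 in which the mossy cell gene Csf2rb2 was also among the leading genes, 110 in a cluster led by Xist, Tsix and Nnat, and 91 in a mature granule-like cluster led by Glis3 and Rfx3. The pair of clusters led by Xist was made almost wholly of the KO-CFC-labelled library, which gave 145 and 109 of their members. By this clustering, most of the nuclei that the rule chose did not go with the label, so they are called members below, and the members inside the Igfbpl1-led cluster are described separately. That subset was formed after the data were seen, and its values are given without a test.

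Members inside and outside that cluster differed in depth. The median inside was 1987 UMIs (WT-naive), 2611 (WT-CFC) and 1852 (KO-CFC-labelled library), against 9441, 11363.5 and 6919 outside. Members inside therefore gave only 9.81% of all member UMIs, and sums over all members mostly reflect the deeper nuclei outside. In nuclei with 1000 to 2000 UMIs, members inside the cluster made up 5.83% (WT-naive), 1.93% (WT-CFC) and 4.67% (KO-CFC-labelled library). Among nuclei with 8000 UMIs or more they made up 0.157%, 0.280% and 0.143%, while all members together made up 7.80%, 5.53% and 13.7%. The deepest nuclei met the rule more often than the shallowest in all 3 libraries, and mostly outside the cluster. No doublets were removed, and 529, 288 and 504 members remained in WT-naive, WT-CFC and the KO-CFC-labelled library when the 8% of barcodes with the highest doublet score were left out.

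**Figure D2:**
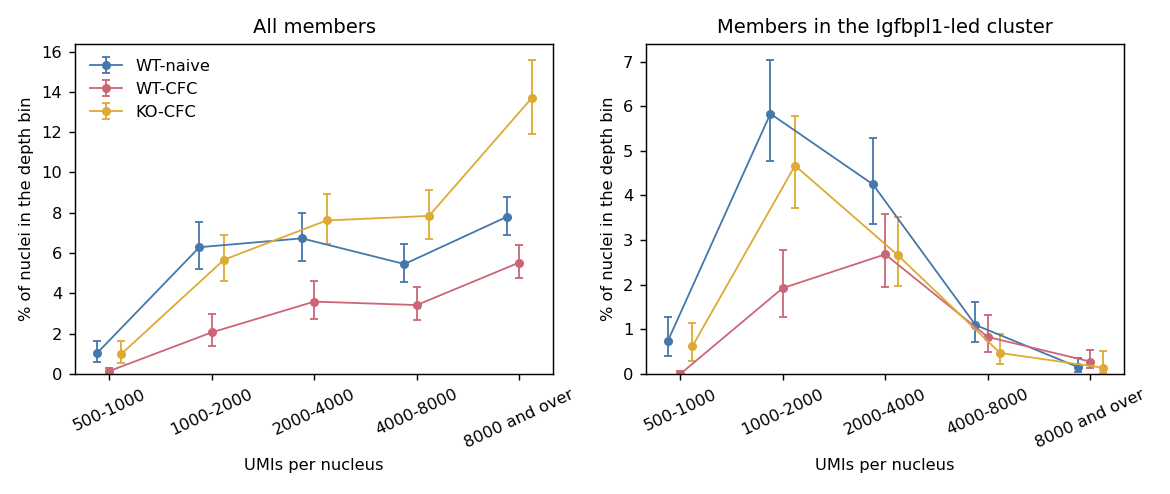
Share of nuclei chosen (percent, with exact 95% intervals) by the number of UMIs in the nucleus, for all members and for members inside the Igfbpl1-led cluster in each library. The share of all members was highest at 8000 UMIs or more (7.80%, 5.53% and 13.7%), whereas the share inside the cluster was highest between 1000 and 4000 UMIs.

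Over all nuclei, members inside the cluster had a share of 2.05% (1.79 to 2.34) in WT-naive. It was 0.743% (0.603 to 0.905) for WT-CFC, while the KO-CFC-labelled library had 1.77% (1.495 to 2.07). WT-CFC was again lowest, and here the intervals of WT-naive and the KO-CFC-labelled library overlapped. Just outside the rule's threshold of 2 markers, 995, 663 and 1093 nuclei had Igfbpl1 or Sox11 as their only marker in WT-naive, WT-CFC and the KO-CFC-labelled library, and 8.14%, 4.83% and 5.76% of them lay in the Igfbpl1-led cluster. Just inside, 448, 233 and 430 members had exactly 2 markers, with 28.6%, 16.3% and 20.2% in the cluster. With 4 or more markers the share in the cluster was 62% (31 of 50 members), 68.75% (22 of 32) and 47.1% (16 of 34). The limit on the excluded genes alone barred 170, 195 and 195 nuclei.

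Sox11 was detected in 75.4% of members (WT-naive), 85.1% (WT-CFC) and 75.7% (KO-CFC-labelled library). Igfbpl1, a secreted protein of the insulin-like growth factor binding family, was detected in 59.2%, 43.1% and 66.0%. Sox11 with Dcx was the pair found together most often in the wild-type libraries (39.1% of members in WT-naive and 50.1% in WT-CFC), and Igfbpl1 with Sox11 in the KO-CFC-labelled library (41.8%). All 6 markers were carried by 3 members (WT-naive), 1 (WT-CFC) and 0 (KO-CFC-labelled library).

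Igfbpl1 stood at 150 CPM in WT-naive members, 105 in WT-CFC and 189 in the KO-CFC-labelled library, and inside the Igfbpl1-led cluster at 776, 664 and 1038. Oligodendrocyte nuclei, which should lack it, carried 31.9, 17.5 and 53.3 CPM, in the same order between libraries as the members. Free RNA was not estimated. Thinned to 1000 UMIs, Igfbpl1 was seen in 26.7%, 21.1% and 28.6% of members and in 62.5%, 57.7% and 63.8% of members inside the cluster, against 1.61%, 0.880% and 4.80% of oligodendrocyte nuclei. Before thinning, oligodendrocyte nuclei had it in 6.38%, 3.61% and 12.7%, at median depths of 2429.5, 2208.5 and 2605 UMIs. Since Igfbpl1 chose the members and led the cluster, its higher level there describes the selection. Sox11 stood at 125, 109 and 153 CPM in members, at 367, 349 and 453 inside the cluster and at 19.4, 16.5 and 35.0 in oligodendrocyte nuclei.

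Dcx, a microtubule-binding protein of migrating neurons, stood at 88.7, 77.5 and 76.2 CPM in members of WT-naive, WT-CFC and the KO-CFC-labelled library. Inside the cluster it reached 259, 230 and 242 CPM, against 20.1, 15.4 and 20.4 in mature granule neuron nuclei and 27.9, 23.1 and 24.9 in oligodendrocyte nuclei. Dcx too was part of the rule, and its level inside the cluster ranged from 230 to 259 CPM over the 3 libraries. Neurod1 inside the cluster stood at 131, 108 and 135 CPM, and Draxin at 91.6, 79.5 and 119. Eomes, the intermediate progenitor factor, stood at 74.3, 45.4 and 33.7 CPM there, from only 43, 16 and 11 counts. WT-naive was the highest for Eomes, but the WT-CFC to WT-naive log2 ratio inside the cluster was -0.68 with a counting interval of -1.64 to 0.15.

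**Figure D3:**
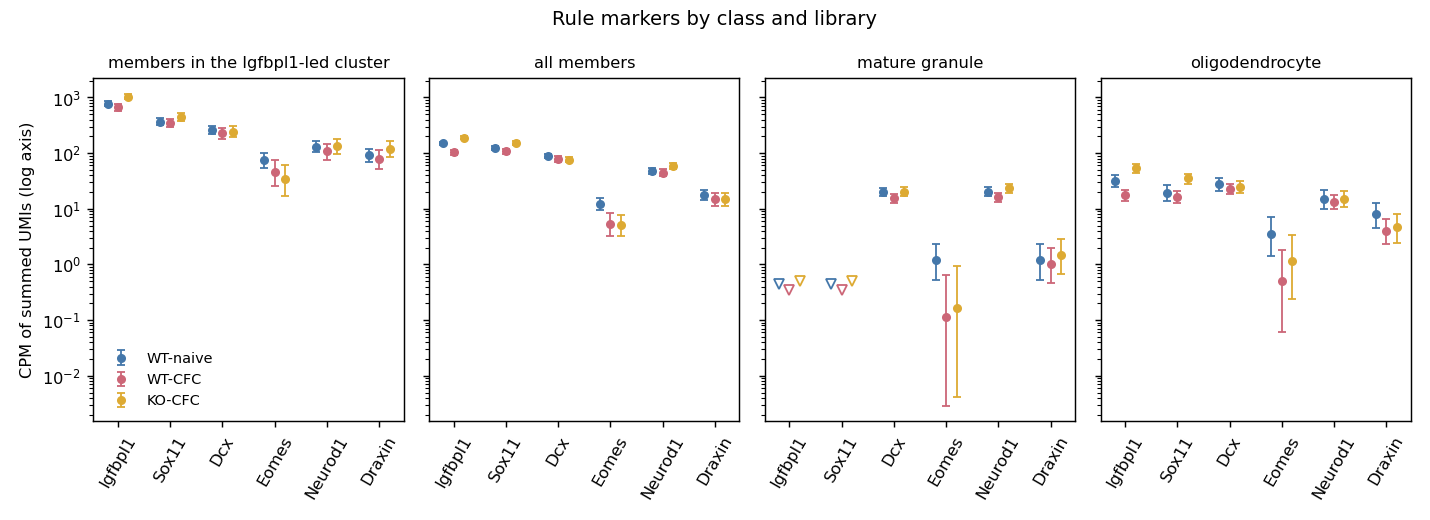
Levels of the 6 rule genes in CPM on a log axis, in members, members inside the Igfbpl1-led cluster and reference classes of each library, with exact Poisson 95% intervals; open triangles mark the floor of 3 counts where none was seen. Igfbpl1 inside the cluster lay at 664 to 1038 CPM, against 17.5 to 53.3 CPM in oligodendrocyte nuclei.

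Lists of cell type markers were summed in members inside the cluster and in mature granule neuron nuclei. The summed level of the 9 immature granule markers, which include Calb2, Sox4 and Dpysl3, was 1476, 1536 and 1433 CPM inside the cluster in WT-naive, WT-CFC and the KO-CFC-labelled library, against 500, 468 and 464 in mature granule neuron nuclei. The 8 cycling markers summed to 494, 400 and 634 CPM inside, against 46.4, 31.7 and 40.8. Intermediate progenitor markers summed to 211, 204 and 178 CPM, against 14.4, 10.6 and 18.6. The 10 mature granule markers summed to 1295, 1752 and 1271 CPM inside, below the 2813, 2948 and 2702 of mature granule neuron nuclei, which the definition of that class favours. All 3 progenitor and immature lists were higher inside the cluster than in mature granule neuron nuclei in every library. These lists are not independent of the selection or of each other. Eomes is a gene of the rule, and Top2a and Prox1 were among the genes that led the cluster. Sox4 stood in both the immature granule and the intermediate progenitor list.

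RNA of other cell types was found in members inside and outside the cluster. CA pyramidal markers summed to 1061, 1062 and 596 CPM over all members and to 375, 468 and 371 inside. Mossy cell markers summed to 112, 97.4 and 68.0 CPM over all members and to 20.8, 31.2 and 15.3 inside, where Csf2rb2 was at 0 in all 3 libraries. Olfactory-type neuroblast markers, a check for neuroblasts of the other adult niche, summed to 29.4, 14.2 and 27.6 CPM inside, with Sp8 and Sp9 at 0. Radial glia-like stem cell markers inside, at 83.0, 90.9 and 113 CPM, stood beside 53.4, 55.3 and 91.7 CPM in mature granule neuron nuclei. Microglia markers summed to 118, 83.5 and 276 CPM over all members and to 112, 51.1 and 205 inside. Erythroid markers summed to 15.9, 15.3 and 67.5 CPM over all members and were higher inside, at 55.3, 96.5 and 196. Both lists were highest in the KO-CFC-labelled library. CA pyramidal and mossy cell RNA was thus lower inside the cluster, and erythroid RNA higher.

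Members were then compared with mature granule neuron nuclei of the same libraries, the cells that newborn granule neurons become. The comparison class held 1190, 1368 and 1337 nuclei with at least 3 of Prox1, Dock10, Rfx3, Calb1, Stxbp6, Trpc6, C1ql2 and Plk5 and none of Igfbpl1, Sox11, Csf2rb2, Calcrl and Drd2, at median depths of 4519, 5215.5 and 3611 UMIs. Counts were summed per library and class and tested with edgeR's quasi-likelihood test, with the library as a block and n = 3 pairs of sums. It called 3999 of 18669 genes at an adjusted p of 0.05 (21.4%), 2049 higher in members (11%) and 1950 lower (10.4%). The 3 pairs come from libraries of different treatment. The p-values combine a gene's own spread across the pairs with spread that edgeR shares over all genes. They therefore do not measure the agreement of the 3 pairs alone, nor the difference between mice. Because members outside the cluster give most of the UMIs, levels inside the cluster are printed beside many of the results. A result without such a level describes the sums over all members only. In the list counts below, genes that either rule used are left out.

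Sema3c had the largest fold change of the 20 genes chosen by rule as higher in members. Its level in members was 78.8 CPM (WT-naive), 67.3 (WT-CFC) and 51.8 (KO-CFC-labelled library), against 19.5, 13.4 and 5.30 in mature granule neuron nuclei. The classes did not overlap, and the log2 fold change was 2.39 ± 0.149 (SE, n = 3, edgeR adjusted p = 4.0e-08). Here and below, the SE of a log2 fold change is the size of that change divided by the square root of edgeR's F statistic. It is not the spread of the 3 pairs, which can be wider. Inside the cluster Sema3c reached 405, 372 and 361 CPM, whereas members outside held 36.4, 33.5 and 26.2. Thinned to 1000 UMIs, it was seen in 31.2%, 35.1% and 26.8% of members inside the cluster and in 2.28%, 1.10% and 0.377% of mature granule neuron nuclei.

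Of the 20 genes chosen by rule as higher in members, 11 were higher inside the Igfbpl1-led cluster than outside it in all 3 libraries, and 6 were higher outside in all 3. The first set included Sema3c, Fnbp1l, the collagen genes Col11a1 and Col12a1, Mtss1, the protease gene Adamts18, Rasgef1b, the neuronal RNA-binding protein gene Elavl4, the laminin gene Lama2 and Mir100hg. Mtss1, which binds membranes and actin, stood at 104, 99.4 and 85.1 CPM in members and 23.3, 23.6 and 25.4 in mature granule neuron nuclei (log2 fold change 1.99 ± 0.101). It reached 401, 474 and 420 CPM inside the cluster. Col11a1 stood at 60.9, 39.5 and 50.2 CPM in members against 13.4, 9.44 and 12.6 (2.07 ± 0.112), and Adamts18 at 45.2, 37.2 and 58.9 against 11.4, 6.10 and 23.04 (1.86 ± 0.173). For none of these 3 genes did the classes overlap.

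The 6 genes higher outside the cluster were Ttn, Cpne9, the cation channel gene Trpc7, Crispld1, the potassium channel gene Kcnq5 and the transcription factor gene Trps1. Kcnq5 stood at 1832, 1431 and 1115 CPM in members and 564, 467 and 396 in mature granule neuron nuclei (log2 fold change 1.59 ± 0.0744). Inside the cluster it was 213, 446 and 251 CPM. Crispld1 stood at 111, 86.1 and 55.1 CPM in members against 31.8, 23.3 and 21.2, but at 10.4, 2.84 and 6.12 inside. Trps1 stood at 1767, 1254 and 648 CPM in members outside the cluster and at 214, 182 and 113 inside. Ttn, Kcnq5, Crispld1 and Trps1 were lower inside the cluster than in mature granule neuron nuclei in all 3 libraries. Cpne9 was higher inside than in that class, at 43.2, 31.2 and 12.2 CPM against 20.0, 19.2 and 10.1. Its level inside rested on 4 counts in the KO-CFC-labelled library. Trpc7 was also higher inside, at 13.8, 8.52 and 21.4 CPM against 11.4, 8.06 and 8.62, and its WT-CFC level inside was that of 3 counts. Kctd8, Fhod3 and Samd5 did not take the same side in all 3 libraries.

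**Figure D4:**
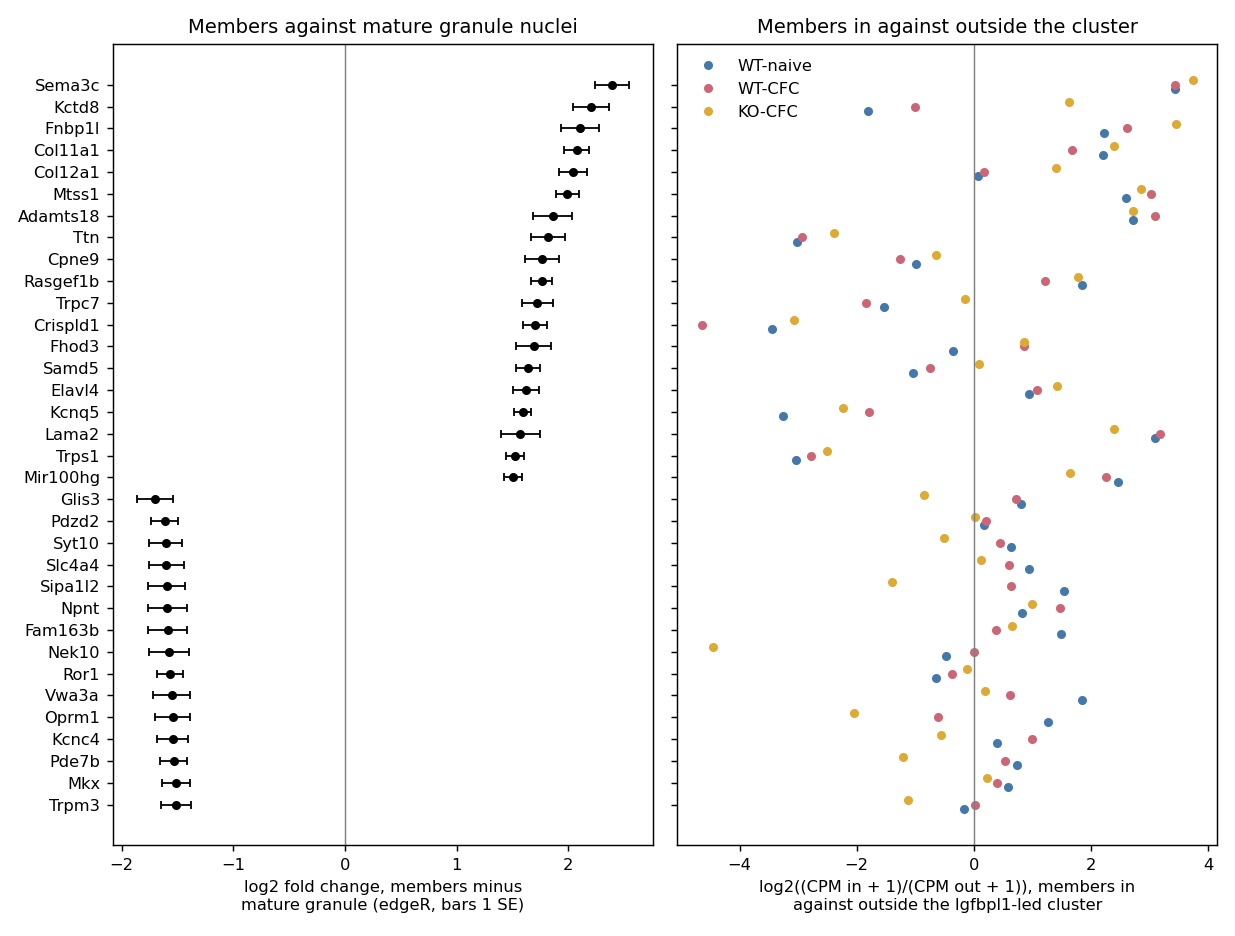
Left, log2 fold change of members over mature granule neuron nuclei for genes named in the text. Bars are ±1 SE computed from edgeR's F statistic over 3 pairs of sums, which is not the spread of the pairs. Right, the log2 difference between members inside and outside the Igfbpl1-led cluster in each library, with 1 CPM added to both, where Sema3c and Mtss1 lie on the inside and Crispld1 and Kcnq5 on the outside.

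The 15 named genes lower in members were Glis3, Pdzd2, Syt10, Slc4a4, Sipa1l2, Npnt, Fam163b, Nek10, Ror1, Vwa3a, Oprm1, Kcnc4, Pde7b, Mkx and Trpm3, with log2 fold changes from -1.70 to -1.51. Glis3, a zinc-finger transcription factor gene that led a mature granule-like cluster, stood at 89.1, 141 and 187 CPM in members and 469, 460 and 373 in mature granule neuron nuclei (-1.70 ± 0.16). Inside the Igfbpl1-led cluster it stood at 143, 219 and 107 CPM. Trpm3, a cation channel gene, stood at 420, 564 and 701 CPM in members and 1817, 1535 and 1357 in mature granule neuron nuclei (-1.51 ± 0.138), and at 380, 571 and 334 CPM inside the cluster. Both were therefore low in members inside and outside the cluster. Oprm1, the mu opioid receptor gene, stood at 10.3, 17.3 and 38.7 CPM in members against 50.3, 52.7 and 78.4, highest in the KO-CFC-labelled library in both classes.

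Among neurogenic transcription factors, 10 of the 19 genes tested outside the rules were higher in members, 2 were lower and 7 did not pass, with a median log2 fold change of 0.33 against -0.01 over all genes. Sox4, the close relative of Sox11, stood at 24.9, 19.6 and 15.7 CPM in members and 6.15, 3.34 and 5.64 in mature granule neuron nuclei. The classes did not overlap (log2 fold change 2.00 ± 0.197, edgeR adjusted p = 2.7e-06), and inside the cluster Sox4 reached 98.5, 105 and 61.2 CPM. Lower were St18 (-1.35 ± 0.10) and Bcl11b (-1.32 ± 0.158), the latter a factor of granule neuron differentiation that stood at 34.2, 61.1 and 65.2 CPM against 144, 139 and 107. Neurod6, a factor of pyramidal neurons, was higher in members (0.88 ± 0.0872), with 49.5 ± 15 CPM (SD, n = 3) inside the cluster and 44.2 ± 8.0 in mature granule neuron nuclei. Prox1, which the definition of mature granule neuron nuclei used, stood at 527, 500 and 465 CPM inside the cluster against 214, 196 and 177 in that class.

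The cell cycle list had 8 of 12 tested genes higher and 0 lower by edgeR, with a median of 0.89; at an unadjusted p of 0.05, 8 would be higher and 1 lower, and DESeq2 called 4 higher and 0 lower. Top2a, which untangles DNA before division, stood at 20.9, 18.2 and 18.5 CPM in members against 2.10, 2.30 and 2.98 (log2 fold change 2.95 ± 0.204), and at 159, 131 and 208 CPM inside the cluster. Cenpf, a kinetochore gene, was higher by 1.34 ± 0.118, with 44.8, 18.2 and 42.4 CPM in members. WT-CFC was lowest for Cenpf in both members and mature granule neuron nuclei (8.06 CPM against 16.8 and 15.9). Mki67, the proliferation antigen, did not pass (-0.26 ± 0.149, edgeR adjusted p = 0.24), although it stood at 64.0, 56.8 and 70.4 CPM inside the cluster against 17.3, 12.5 and 12.3 in mature granule neuron nuclei.

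Genes of the cytoskeleton and of migration were higher in 13 of 27 tested, lower in 4 and not called in 10, with a median of 0.16; DESeq2 called 10 higher and 2 lower. St8sia2, the enzyme that adds polysialic acid to the adhesion molecule NCAM on immature neurons, stood at 13.3, 20.2 and 11.3 CPM in members and 2.55, 1.38 and 0.332 in mature granule neuron nuclei. That was a log2 fold change of 3.38 ± 0.308, with 83.0, 111 and 58.2 CPM inside the cluster. Dpysl3, a collapsin response mediator of growing axons, stood at 60.1, 40.9 and 54.2 CPM against 22.7, 17.5 and 23.2 (1.28 ± 0.101) and at 195, 128 and 205 CPM inside. Stmn1, which destabilizes microtubules, was higher by 0.90 ± 0.0921, Gap43 of growth cones by 0.95 ± 0.102 and the neuronal tubulin gene Tubb3 by 0.70 ± 0.0875. For Stmn1 the classes overlapped between libraries, since the mature granule level in the KO-CFC-labelled library (64.8 CPM) exceeded that of members in WT-CFC (55.7 CPM).

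Axon guidance was the list with most calls, 15 higher and 5 lower of 27 tested, and a median of 0.52. Dcc, the netrin receptor, stood at 2058, 1979 and 1353 CPM in members against 1261, 1131 and 825 (0.73 ± 0.069), and at 3110, 3234 and 2906 CPM inside the cluster. Robo1, a Slit receptor, was higher by 1.07 ± 0.0752, with 607, 806 and 680 CPM inside against 388, 337 and 189. For 3 other genes the levels inside did not exceed those of mature granule neuron nuclei by as much or at all. Unc5c, the repulsive netrin receptor (0.82 ± 0.0749), averaged 102 ± 36 CPM inside against 531 ± 70. Slit2 (0.998 ± 0.0861) averaged 81.0 ± 20 against 114 ± 37, and the ephrin receptor gene Epha3 (1.01 ± 0.0803) 190 ± 39 against 185 ± 36 (SD, n = 3 libraries each).

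Signalling genes were higher in 7, lower in 5 and not called in 13 of 25 tested, with a median of 0.07; DESeq2 called 5 higher and 2 lower. Fgfr1, a fibroblast growth factor receptor gene, stood at 119, 129 and 98.5 CPM in members against 55.4, 51.0 and 48.6 (1.14 ± 0.0881) and at 292, 358 and 300 CPM inside the cluster. Lrp8, a receptor for reelin, was higher by 0.86 ± 0.097, while Dab1, the adaptor that carries the reelin signal, was lower by 0.94 on the log2 scale (-0.94 ± 0.117). Inside the cluster Dab1 stood at 2261, 3132 and 2205 CPM, close to the 2493, 2584 and 1856 of mature granule neuron nuclei. Igf1r, the receptor of insulin-like growth factor, was higher by 0.45 ± 0.0756.

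By edgeR, 0 genes for GABA-A receptor subunits or chloride transport were higher, 7 were lower and 7 did not pass, out of 14, with a median of -0.26. At an unadjusted edgeR p of 0.05, 2 would be higher and 9 lower, and DESeq2 called 0 higher and 6 lower. Gabrd, the extrasynaptic subunit of granule neurons, stood at 4.18, 10.5 and 29.1 CPM in members against 27.0, 28.2 and 55.0 (-1.46 ± 0.197). Slc12a5, the chloride exporter that makes GABA inhibitory as neurons mature, stood at 100.1, 158 and 151 CPM in members against 158, 204 and 192 (-0.47 ± 0.0795), and at 81.3, 85.2 and 122 CPM inside the cluster. Its counterpart Slc12a2, the importer of young neurons, did not pass (0.30 ± 0.116, edgeR adjusted p = 0.084). Gabrb2 (-0.81 ± 0.0771), a subunit of mature synaptic receptors, was lower in members in every library.

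Among glutamate receptors 3 genes were higher, 8 lower and 11 not called, of 22, and DESeq2 called 3 higher and 4 lower. Grin2a, the NMDA receptor subunit gained in maturation, stood at 1807, 2131 and 1532 CPM in members against 2560, 2713 and 1932 (-0.41 ± 0.0685), and at 626, 1136 and 683 CPM inside the cluster. Grm8 was higher (1.27 ± 0.157), yet stood at 8.64, 14.2 and 30.6 CPM inside against 55.8, 44.2 and 61.8. Synaptic maturation genes were higher in 7, lower in 8 and not called in 10 of 25, with a median of 0.00; DESeq2 called 4 higher and 6 lower. Nrxn3 was higher in members (4665, 4156 and 2312 CPM against 2371, 2077 and 1449, 0.87 ± 0.0814) but stood at 379, 505 and 184 CPM inside the cluster. Lrrtm4, a postsynaptic organizer, was lower (-1.20 ± 0.113).

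Among the remaining lists, median log2 fold changes were -0.27 (glucocorticoid response), 0.28 (immediate early), 0.24 (sterol synthesis) and 0.03 (library quality). The glucocorticoid response list had 1 gene higher and 4 lower of 12, immediate early genes 2 and 2 of 14 (1 and 1 by DESeq2), sterol synthesis genes 3 and 0 of 14 by edgeR (6 and 0 at an unadjusted p of 0.05, 0 and 0 by DESeq2), and library quality genes 2 and 1 of 15 (1 and 0 by DESeq2). In the IL-3 and GM-CSF receptor list only 1 gene outside the rules was tested, and it did not pass. Csf2rb2 itself is barred from mature granule neuron nuclei by definition and stood at 19.7, 15.9 and 8.68 CPM in members, from 99, 56 and 37 counts. Of the CA pyramidal markers 3 of 9 were higher and 1 lower. One of them was Nectin3, at 178, 175 and 76.2 CPM in members, 65.9, 59.2 and 42.3 in mature granule neuron nuclei and 20.7, 31.2 and 12.2 inside the cluster. All 5 oligodendrocyte markers tested were lower, a direction the limit on Mog favours. Ebf1, the one B lineage marker tested, was higher (1.96).

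Members of the trained wild-type library were next set beside those of the naive library. At 30 counts or more over both libraries, 1712 of 15289 genes lay past 1.5-fold (11.2%), 802 higher in WT-CFC (5.25%) and 910 lower (5.95%). Of those past 1.5-fold 46.8% were higher, and 37.1% with totals adjusted by the trimmed mean of M-values. Since each arm is 1 library, these are values of the libraries and carry no test. H2ac24, a histone gene, had the highest log2 ratio, 2.80 (counting interval 2.02 to 3.74), at 21.3 CPM in WT-CFC and 2.98 in WT-naive. Its ratio was 3.55 in mature granule neuron nuclei and 3.52 in all other nuclei. The actin gene Actg1 (51.1 against 17.7 CPM, 1.53) and the antioxidant gene Gpx4 (1.36) were likewise as high in all other nuclei (1.79 and 1.36). Ttr, the transthyretin gene of choroid plexus, was at 0 in WT-CFC members and at 40.0 CPM in WT-naive members, at least 46.9-fold lower against a floor of 3 counts, and all other nuclei had 0.123 against 37.1 CPM.

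Some named genes differed more in members than in other nuclei. They were named for their extreme ratios in members, a choice that favours smaller ratios in the other classes. Adgrl2, an adhesion receptor gene, stood at 12.2 CPM in WT-CFC members and 3.38 in WT-naive, a log2 ratio of 1.83 (1.01 to 2.76). Its ratio was 1.85 inside the cluster (0.55 to 3.43, from 16 and 7 counts), 0.90 in mature granule neuron nuclei and 0.37 in all other nuclei. In the KO-CFC-labelled library it stood at 2.58 CPM, near the naive level. Loxl2, a collagen cross-linking enzyme gene, stood at 1.14 against 11.1 CPM (-3.14, -5.22 to -1.86), and at 5.68 against 5.19 CPM inside the cluster. Its ratio was -0.46 in all other nuclei. These differences between classes were not tested.

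The lists were then compared between WT-CFC and WT-naive, first over all members. Axon guidance genes had 2 higher and 0 lower past 1.5-fold of 28 measured and a median log2 ratio of 0.01, cytoskeleton and migration genes 1 and 1 of 27 with -0.12, and neurogenic transcription factors 1 and 1 of 23 with -0.08. Genes for GABA-A receptors and chloride transport had 3 higher and 0 lower of 14, with 13 above 0 and a median of 0.16, and synaptic maturation genes 2 and 0 of 26, with 21 above 0 and 0.10. The glucocorticoid response list had 2 higher and 0 lower of 10, with 8 above 0 and 0.19, and library quality genes 1 higher and 4 lower of 15, with 4 above 0 and -0.11. Over all genes 8513 of 15289 were above 0, with a median of 0.04. Inside the Igfbpl1-led cluster the background was 10.8% of 6067 genes higher and 8.42% lower, with 3312 above 0 and a median of 0.05. There, synaptic maturation genes had 6 higher and 1 lower of 25, with 20 above 0 and a median of 0.28, against 0.01 in mature granule neuron nuclei. Syn3, a synapsin gene, stood at 574 against 303 CPM inside the cluster (0.92, 0.62 to 1.22), Camk2a at 511 against 315 (0.70, 0.39 to 1.005) and the vesicle calcium sensor gene Syt1 at 0.63 (0.44 to 0.82). Axon guidance genes inside had 3 higher and 0 lower of 26, with 21 above 0 and a median of 0.37. Of the glucocorticoid response list 5 genes were measured inside the cluster, 3 of them higher past 1.5-fold. Zbtb16, a glucocorticoid-induced factor, stood at 125 against 55.3 CPM (1.17, 0.49 to 1.88) and Nr3c2, the mineralocorticoid receptor gene, at 644 against 432 (0.58, 0.31 to 0.84). WT-CFC members inside the cluster were also the deepest, at 2611 against 1987 UMIs, and library quality genes inside had 1 higher and 3 lower of 14 with a median of -0.19. The part of depth and of library quality in these ratios was not tested.

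Members of the KO-CFC-labelled library were set beside WT-CFC, a comparison that shares the WT-CFC library with the one above. At the same limits 4262 of 15150 genes lay past 1.5-fold (28.1%), 3075 higher in the KO-CFC-labelled library (20.3%) and 1187 lower (7.83%). The 12 named genes of highest ratio were immune genes. Igkc was at 368 CPM against 0, at least 432-fold higher, Iglc1 at least 126-fold, Ighg2c at least 120-fold, the antigen presentation gene Cd74 at least 113-fold and Igha at least 51.7-fold. Jchain, Ighg2b, H2-Eb1, Slpi, Ighm, H2-Aa and Ifi27l2a followed. All were also higher in mature granule neuron nuclei and in all other nuclei, with Igkc at 297 and 472 CPM there. Inside the Igfbpl1-led cluster Igkc was higher still, at 689 CPM against 0 in WT-CFC, and so were Iglc1 (178 against 107 CPM over all members), Jchain (165 against 89.6) and Ighg2b (153 against 28.4), whereas Ighg2c (42.9 against 102) and Cd74 (70.4 against 95.9) were lower there. The B lineage markers in members summed to 6.77, 5.68 and 7.27 CPM in WT-naive, WT-CFC and the KO-CFC-labelled library. Of these markers, 6 of the 7 were at 0 inside the Igfbpl1-led cluster in all 3 libraries. Ebf1 gave most of each sum, and the list held no immunoglobulin gene. A cluster led by Igkc and Iglc1 held 1009 nuclei of the KO-CFC-labelled library, 0 of WT-naive and 1 of WT-CFC. Its median nucleus held 559 UMIs, and Igfbpl1 stood at 162 CPM there. A cluster led by Ighm and Igkc held 351, 2 and 0 nuclei in that order. These clusters held 6 and 14 members, and the source of the immunoglobulin RNA was not tested. Microglia markers in members (276 CPM against 83.5) moved with the immune genes, and their part was not tested.

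Ttn, the giant muscle protein gene, was the named gene of lowest ratio, at 19.0 CPM in the KO-CFC-labelled library and 165 in WT-CFC (-3.11, -3.47 to -2.78). Its ratio was -1.77 in mature granule neuron nuclei and -2.43 in all other nuclei. Cmss1 (-1.71), the small RNA gene Rn7sk (-1.65) and the brain cytoplasmic RNA Bc1 (-1.87) were also lower in all other nuclei, by -2.13, -1.96 and -1.56. Adgrl2 had -2.20 in members, -0.62 in mature granule neuron nuclei and -0.09 in all other nuclei. Inside the cluster it had -2.13 (-4.73 to -0.50), from 3 and 16 counts. St8sia6 (-2.09), Wdr72 (-2.16), Prkcd (-2.00), Cpne9 (-1.89), Iyd (-1.74), Sema5b (-1.66) and Mir6236 (-2.09) completed the lower set.

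Cytoskeleton and migration genes were the list with most genes higher in the KO-CFC-labelled library, 13 of 28 with 1 lower and a median of 0.36 against 0.07 over all genes. Inside the cluster 9 of 26 were higher and 1 lower, with a median of 0.11 against -0.05 over all genes there. The median of the list was 0.26 in mature granule neuron nuclei and 0.27 in all other nuclei, so it was higher outside the members too. Tmsb10, an actin-binding peptide gene, stood at 111 against 24.4 CPM (2.17, 1.85 to 2.53), Tuba1a at 270 against 83.5 (1.69, 1.51 to 1.88) and Tubb2b at 70.1 against 24.995 (1.48, 1.14 to 1.85). Inside the cluster the same ratios were 1.91, 1.46 and 1.35, and in mature granule neuron nuclei 2.64, 1.45 and 1.05. All 3 genes were thus higher in members, inside the cluster and in mature granule neuron nuclei. Library quality genes were also higher, 7 of 15 with 0 lower and a median of 0.58, and their part in the list result was not tested.

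Axon guidance genes had 1 higher and 8 lower of 28 measured in members (median -0.36), and 0 higher and 9 lower of 24 inside the cluster (-0.42), against -0.41 in mature granule neuron nuclei. Synaptic maturation genes had 0 higher and 4 lower of 26 (-0.38), and inside the cluster 0 higher and 10 lower of 25 (-0.51), where the background was 15.4% of 4852 genes higher and 15.1% lower. The median of the list was -0.35 in mature granule neuron nuclei and -0.35 in all other nuclei, so its genes were lower in the KO-CFC-labelled library outside the members too. Library quality genes inside had 4 higher and 1 lower of 13 (0.34), and their part was not tested. Kcnip4, a potassium channel partner gene, had -1.02 inside (-1.21 to -0.83) and -0.36 in mature granule neuron nuclei. Syn3 stood at 291 against 574 CPM inside (-0.98, -1.35 to -0.62) and Camk2a at 285 against 511 (-0.84, -1.22 to -0.47). Syn3 in WT-naive members inside the cluster, at 303 CPM, lay near the level of the KO-CFC-labelled library, and WT-CFC was the one high library of the 3. The list as a whole was also lower in the KO-CFC-labelled library than in WT-naive there. It had 1 higher and 5 lower of 26, with 6 above 0 and a median of -0.16. All 6061 genes had 932 higher and 639 lower, with 3128 above 0 and a median of 0.02.

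**Figure D5:**
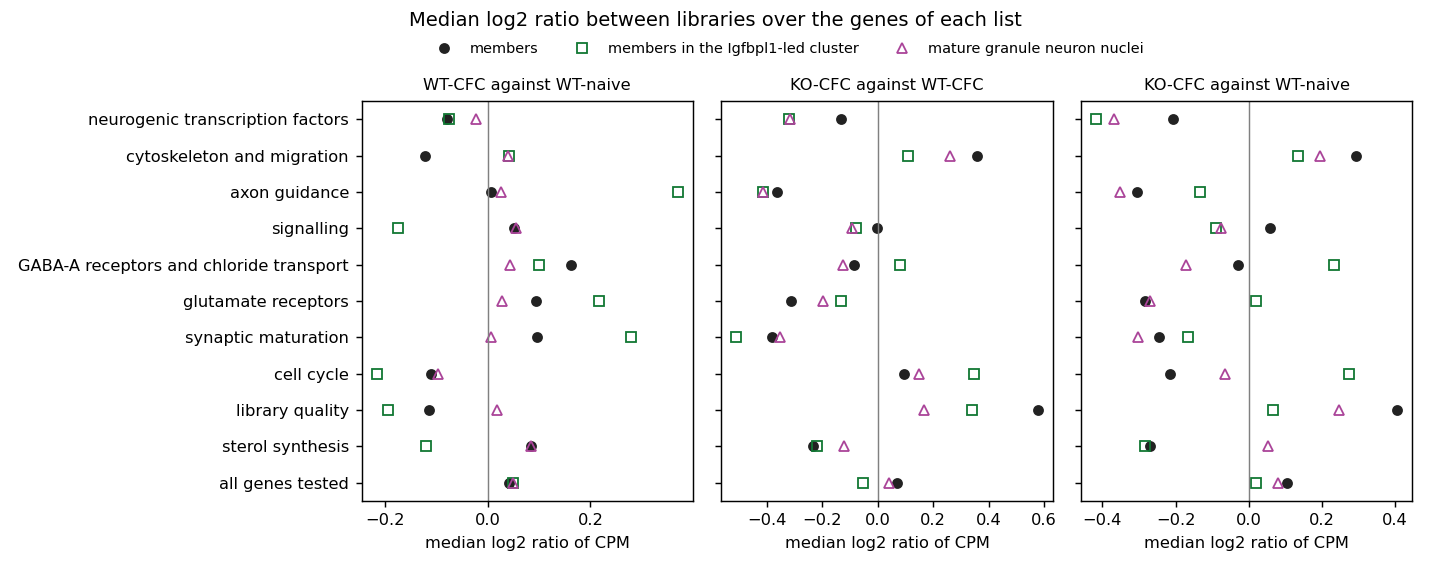
Median log2 ratio of each gene list in the 3 comparisons of libraries, for all members, members inside the Igfbpl1-led cluster and mature granule neuron nuclei. Synaptic maturation genes inside the cluster had a median of 0.28 when WT-CFC was set against WT-naive and -0.51 for the KO-CFC-labelled library against WT-CFC; the comparisons share libraries.

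Against WT-naive, members of the KO-CFC-labelled library had 4940 of 16058 genes past 1.5-fold (30.8%), 3475 higher (21.6%) and 1465 lower (9.12%). With totals adjusted by the trimmed mean of M-values, 58.6% of the genes past 1.5-fold were higher in place of 70.3%, and the median over all genes was 0.00 in place of 0.11. Igkc was at least 616-fold higher, and Ttr, at 0 against 40.0 CPM, at least 56.9-fold lower. Wdr72 stood at 3.28 CPM with a log2 ratio of -3.13 (-4.08 to -2.38), Bc1 at -2.79 and Ttn at -2.79. Both wild-type libraries thus lay above the KO-CFC-labelled library for Wdr72, Bc1 and Ttn.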

How the data were processed

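Nuclei were isolated from frozen dentate gyrus and sequenced with droplet chemistry, per the labels' protocols. The authors deposited raw UMI counts per gene and barcode, 78334 genes in each library. Cell Ranger 8.0.1, Seurat 5.4.0 and builds GRCm39 and mm39 are named in the submitters' processing notes. The files hold filtered barcodes, and no cell annotation was used here. Member totals were 5025400 UMIs (WT-naive), 3520670 (WT-CFC) and 4264365 (KO-CFC-labelled).

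The members, gene lists and tests were chosen with earlier results of these data known. Counts were summed per library and class. Between libraries, log2 ratios of summed CPM (0.5 counts added) were computed with exact conditional binomial 95% intervals for genes with at least 30 counts. Members and mature granule neuron nuclei were compared with edgeR 4.0.16 in R 4.3.3 (quasi-likelihood test, TMM, filterByExpr, library as a block, Benjamini-Hochberg adjustment); both sums of a pair come from the same library, which is where the pairing comes from. DESeq2 1.42.0 was an alternative. Oligodendrocyte and microglia nuclei had at least 3 of their markers. Nuclei were clustered with Leiden (resolution 1, 2000 variable genes, 30 components, 15 neighbours; leidenalg 0.10.2). No doublets were removed; removing the 8% of barcodes of highest simulated-doublet score was an alternative. Thinning to 1000 UMIs left out 41 members and 25 mature granule neuron nuclei.

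Named genes against mature granule neurons were the 20 highest and 15 lowest log2 fold changes at an adjusted p of 0.05, of 1 sign in all 3 libraries and with at least 30 CPM in the higher class. Between libraries they were the 12 highest and 12 lowest past 1.5-fold with at least 50 counts and an interval that left out 0. Left out were genes of the rules, haemoglobin, mitochondrial and ribosomal protein genes, sex-linked genes and gene models with no name. A gene that met this rule is not reported here. On simulated counts over 18759 genes, the edgeR step called 96.9% of genes changed 4-fold, 33.9% of those changed 2-fold and 0.028% of unchanged genes. Those counts were drawn from a shared profile with the same spread for all genes. They held no library differences and no choice of nuclei by markers, so the rates need not hold for the real data. In simulated sums, 92.6% to 95.3% of 2-fold genes and 5.46% to 6.02% of unchanged genes lay past 1.5-fold.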

Additional observations from a re-analysis of the deposited data

How the results depend on the processing

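The shares depended on the reading of the rule, and WT-CFC had the lowest share under every one tried. With at least 1000 UMIs and 500 genes they were 6.71% (WT-naive), 4.05% (WT-CFC) and 8.45% (KO-CFC-labelled library), with 3 markers 1.62%, 0.842% and 1.90%, with Igfbpl1 required 3.42%, 1.13% and 4.64%, with 0 UMIs of the excluded genes 4.17%, 1.81% and 5.17%, and after thinning 1.54%, 0.711% and 2.02%. Inside the Igfbpl1-led cluster, a choice made after seeing the data, they were 2.05%, 0.743% and 1.77%, the one reading in which WT-naive was highest. Removing likely doublets gave 5.35% in WT-naive. Genes past 1.5-fold between WT-CFC and WT-naive numbered 453 at 100 counts or more, 16488 with no filter and 2950 with nuclei weighted equally, and 59.4% of them were higher with 3 markers or with Igfbpl1 required, in place of 46.8%, but 37.1% with TMM-adjusted totals. Between the KO-CFC-labelled library and WT-CFC they numbered 1480 inside the cluster (50.5% higher in place of 72.1%), 2171 at 100 counts and 20150 with no filter. Between the KO-CFC-labelled library and WT-naive they numbered 3240 with 3 markers, 1571 inside the cluster, 2628 at 100 counts and 21188 with no filter. Fewer genes are tested inside the cluster and at 100 counts. Members against mature granule neuron nuclei gave 2517 calls with 3 markers, 1776 after thinning, 1635 with DESeq2 and 2225 (without WT-CFC) to 4263 (without the KO-CFC-labelled library) when 1 library was left out. With no replicate block for the library the pairing was ignored and 620 genes were called, 344 higher and 276 lower, and Ttn, Cpne9, Samd5, Trps1, Oprm1 and Kcnc4 did not pass. The cause of the other shifts was not tested. Of the 455 values of named fold changes under alternatives, 449 kept direction and call and 6 lost the call, and none reversed. Of the 663 values of named log2 ratios between libraries 47 moved, as did 35 of 67 summary values. Depth limits the subset inside the cluster most, with 352214 UMIs in WT-CFC and 326549 in the KO-CFC-labelled library.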
